A study of Mus musculus with 6 samples.

Results

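The genes described are the mouse potassium channel genes, taken as every probe set of the array that the platform annotation gives 1 gene symbol starting with Kcn, with the imprinted RNA Kcnq1ot1 left out. The rule found 161 probe sets for 83 genes, among the 45037 probe sets and 18193 named genes of the whole array. It used no measured value, but the family was chosen with earlier results of these data known. The RNA came from motor neurons of the mouse brainstem, in 3 samples labelled wild type (WT) and 3 labelled SOD1, and all 6 samples went through 2 rounds of T7-based amplification. The labels name the SOD1 mice only by that gene, and the sources used here leave out the allele, the animals' strain and age, how the neurons were collected and how many animals went into a sample. The p-values therefore speak only for the spread among these 6 samples, which may in part be technical. In RNA from such samples, fewer cells of a type and less RNA per cell cannot be told apart.

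Potassium channels let potassium leave the cell and bring the membrane back towards rest. In motor neurons the voltage-gated Kv families set the threshold, width and repetition of action potentials, calcium- and sodium-activated channels shape the pauses between them, and the inward rectifier and 2-pore families hold the resting potential. In astrocytes, inward rectifiers take up the potassium that active neurons release. A channel is a tetramer of pore-forming subunits (a dimer in the 2-pore family), joined in many cases by auxiliary subunits, so 1 current can depend on several of these genes.

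No potassium channel probe set passed the test between SOD1 and WT, and the data give the family mainly as levels and as differences short of the threshold. The closest were a lower signal of Kcna2, a Kv1 subunit of axons, and a higher signal of Kcnj10, the main inward rectifier of astrocytes. To show the sequence before a start of each of these 2 genes, the 250 bases before the start that RefSeq's table lists are printed here (GRCm38.p6), 5′ to 3′ on the gene's own strand, with matches to any of 4 short motifs in capitals. The motifs, searched on both strands, were TATAAA (the TATA box), GGGCGG (the GC box), TGACG (the cyclic AMP response element's core) and CACGTG (an E box), and their letters overlapped each other nowhere in these 2 windows. The Kcna2 window lies at chr3:107101317-107101566 on the + strand, inside the span RefSeq gives the gene, so it precedes an internal start and not the gene's first base. The Kcnj10 window ends just before the gene's first base, at chr1:172340960-172341209 on the + strand.
Kcna2: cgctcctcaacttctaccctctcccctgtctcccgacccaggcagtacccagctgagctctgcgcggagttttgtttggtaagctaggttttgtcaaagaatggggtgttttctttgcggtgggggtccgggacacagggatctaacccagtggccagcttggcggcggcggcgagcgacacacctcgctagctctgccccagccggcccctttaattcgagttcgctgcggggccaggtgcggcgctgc
Kcnj10: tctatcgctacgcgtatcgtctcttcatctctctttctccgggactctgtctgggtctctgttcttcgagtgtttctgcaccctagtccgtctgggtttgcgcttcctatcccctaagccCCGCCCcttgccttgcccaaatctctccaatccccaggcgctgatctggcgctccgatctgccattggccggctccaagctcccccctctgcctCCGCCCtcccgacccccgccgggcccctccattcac

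The Kcnj10 window held 2 GC boxes and the Kcna2 window held none of the 4 motifs, which says only that these letters are not in it. Windows before a start were at hand for 63 of the 83 genes, with chromosome 18 left out for these genes. A GC box was in 45.5% of the 88 windows of these potassium channel genes, against 32.7% of the 32851 windows of all genes, where chromosome 18 was kept. A TATA box was in 3.41% of the channel windows against 12.4% of all windows. The core of the cyclic AMP response element was in 14.8% against 17.8% and the E box in 5.68% against 6.02%. These shares describe letters in the sequence and no binding was measured.

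Signals are given as log2(signal + 16) after quantile normalisation, and a change is SOD1 minus WT on that scale ± SE, with 3 arrays per group, which understates the change of low signals. Signals of different probe sets depend on the probes and cannot be set against each other. A background level was taken on each array from bacterial control probe sets and lay between 7.21 and 7.61. Of the 161 probe sets, 70, belonging to 42 genes, were above it on all 6 arrays, and 21 were at or below it on all 6. The median deposited signal of the arrays ranged from 267 to 315. Xist averaged 12.83 and 12.91 on SOD1 replicates 1 and 2, 5.71 on SOD1 replicate 3 and 5.76 to 7.07 on the WT arrays. Xist is made from the inactive X chromosome of female cells, and the labels used here give no sex. High Xist was seen on SOD1 arrays only, so a difference in sex, if there is one, cannot be fully told apart from that between the groups. All 12 motor neuron markers measured (of 14 listed) were above background on at least 1 array, and their mean ranged from 13.52 to 13.65 in WT and from 13.28 to 13.45 in SOD1.

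The test was limma on the 27022 probe sets whose mean signal exceeded the 40th percentile, with Benjamini-Hochberg adjustment over all of them and a threshold of 0.05. It took in 88 potassium channel probe sets of 52 genes, while the 73 below the filter, which include every probe set of the other 31 genes, were not tested. Over all probe sets 50 were called, or 0.185%, and over the potassium channels 0 of 88. At an unadjusted p under 0.05, 14 of the 88 were lower in SOD1 (15.9%) against 7.58% of all probe sets tested, and 4 were higher (4.55%) against 7.09%. All 3 SOD1 arrays lay below all 3 WT arrays for 13 of the 88 (14.8%), against 9.81% of all probe sets tested, and above them for 5 (5.68%), against 10.5%. The median change of the 88 was -0.17, against -0.01 over all probe sets tested, with 54 estimates negative and 34 positive. The 18 probe sets at an unadjusted p under 0.05 stand for 15 genes, 11 of them lower and 4 higher.

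**Figure D1:**
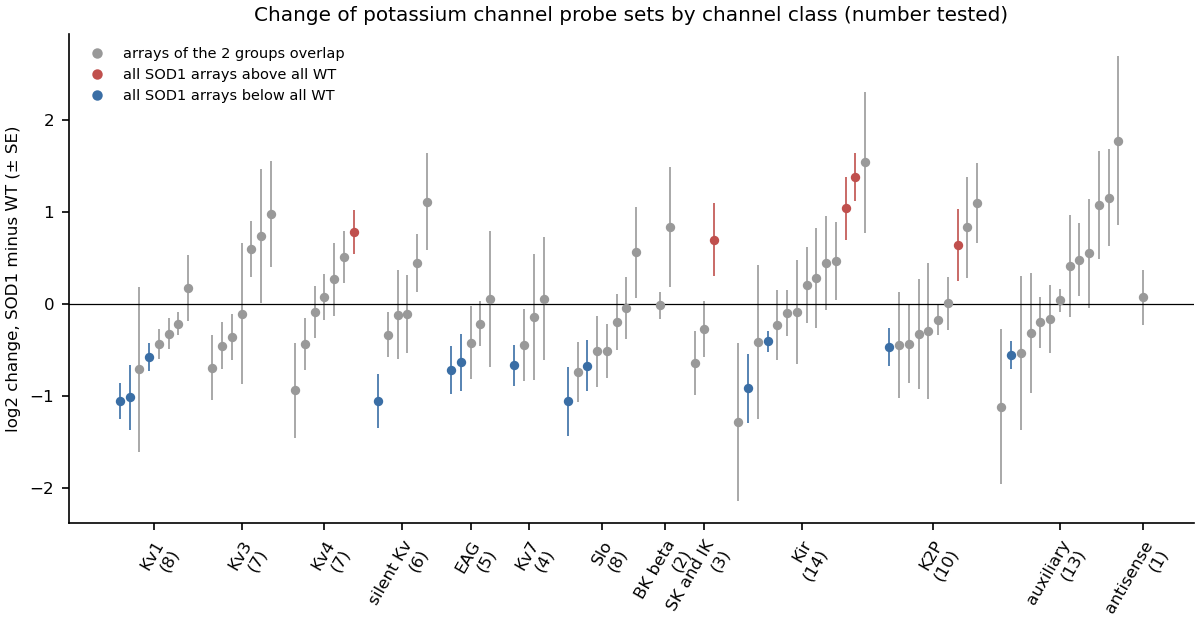
Log2 change, SOD1 minus WT, of the 88 potassium channel probe sets tested (points, ± SE from limma, 3 arrays per group), grouped by channel class with the number tested in brackets. Colours mark probe sets whose 3 SOD1 arrays lay all above (5) or all below (13) the 3 WT arrays; in the Kv1 and Slo classes 7 of 8 points each lie below 0.

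The Kv1 genes (Kcna) encode delayed rectifiers that sit beside the nodes and at the initial segment of axons and limit repetitive firing. Kcna2 had the larger difference at the first of its 2 tested probe sets, which read 14.74, 14.49 and 14.28 on WT replicates 1 to 3 and 13.59, 13.64 and 13.10 on SOD1 replicates 1 to 3. Every SOD1 array was below every WT array. The SOD1 level was 2.08-fold lower (-1.06 ± 0.20), with adjusted p = 0.0651. The adjusted p depended on the setting, between 0.0401 and 0.345 over the alternatives, and it was 0.0401 with a filter at the 60th percentile, 0.0414 with array weights. A second Kcna2 probe set was at 15.31 ± 0.21 in WT and 14.87 ± 0.28 in SOD1 (SD, n = 3), a change of -0.43 ± 0.17 (adjusted p = 0.265; -0.24 with median centring) with overlapping arrays. The gene's other 2 probe sets lay below the filter and opposed each other, at -2.13 ± 0.77 and 1.98 ± 0.73, the latter with all WT arrays at background.

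Kcna1, the partner of Kcna2 in axonal channels, was read by 3 tested probe sets, all with negative estimates. The one with the smallest p gave 15.48, 15.44 and 15.58 in WT and 15.26, 14.66 and 14.86 in SOD1, without overlap (-0.58 ± 0.16, adjusted p = 0.147; -0.38 with median centring). The other 2 gave -0.32 ± 0.17 and -0.21 ± 0.12 with overlapping arrays, and the last was at 0.014 with median centring. Kcna6, another Kv1 subunit, read 12.98, 12.21 and 12.27 in WT and 11.52, 12.10 and 10.79 in SOD1 at its brighter probe set (-1.02 ± 0.35, adjusted p = 0.228; -0.68 without SOD1 replicate 3 and -1.62 with a term for Xist). Its second tested probe set differed in sign (0.17 ± 0.36). Kcna4, an inactivating Kv1 subunit, was at -0.71 ± 0.90, with 2 SOD1 arrays at background, and Kcna3, Kcna5 and Kcna7 had no probe set above the filter. Over the Kv1 class 7 of 8 tested probe sets were negative, with a median of -0.50, and with median centring 6 of 8 were, with a median of -0.31.

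The cytoplasmic beta subunits Kcnab1 and Kcnab2 bind Kv1 channels, and those of Kcnab1 speed inactivation. Kcnab2 was at 14.84 ± 0.23 in WT, with a lowest array of 14.58, and at 14.29 ± 0.07 in SOD1 (SD, n = 3), with arrays of 14.35, 14.29 and 14.21 that were all lower (-0.55 ± 0.15, adjusted p = 0.155). Kcnab1 read 15.75 ± 0.20 in WT and 15.79 ± 0.11 in SOD1 (SD, n = 3), a difference of 0.04 ± 0.13, less than the spread between replicates. Its second probe set was at 0.48 ± 0.40, and Kcnab3 was at 0.41 ± 0.56.

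**Figure D2:**
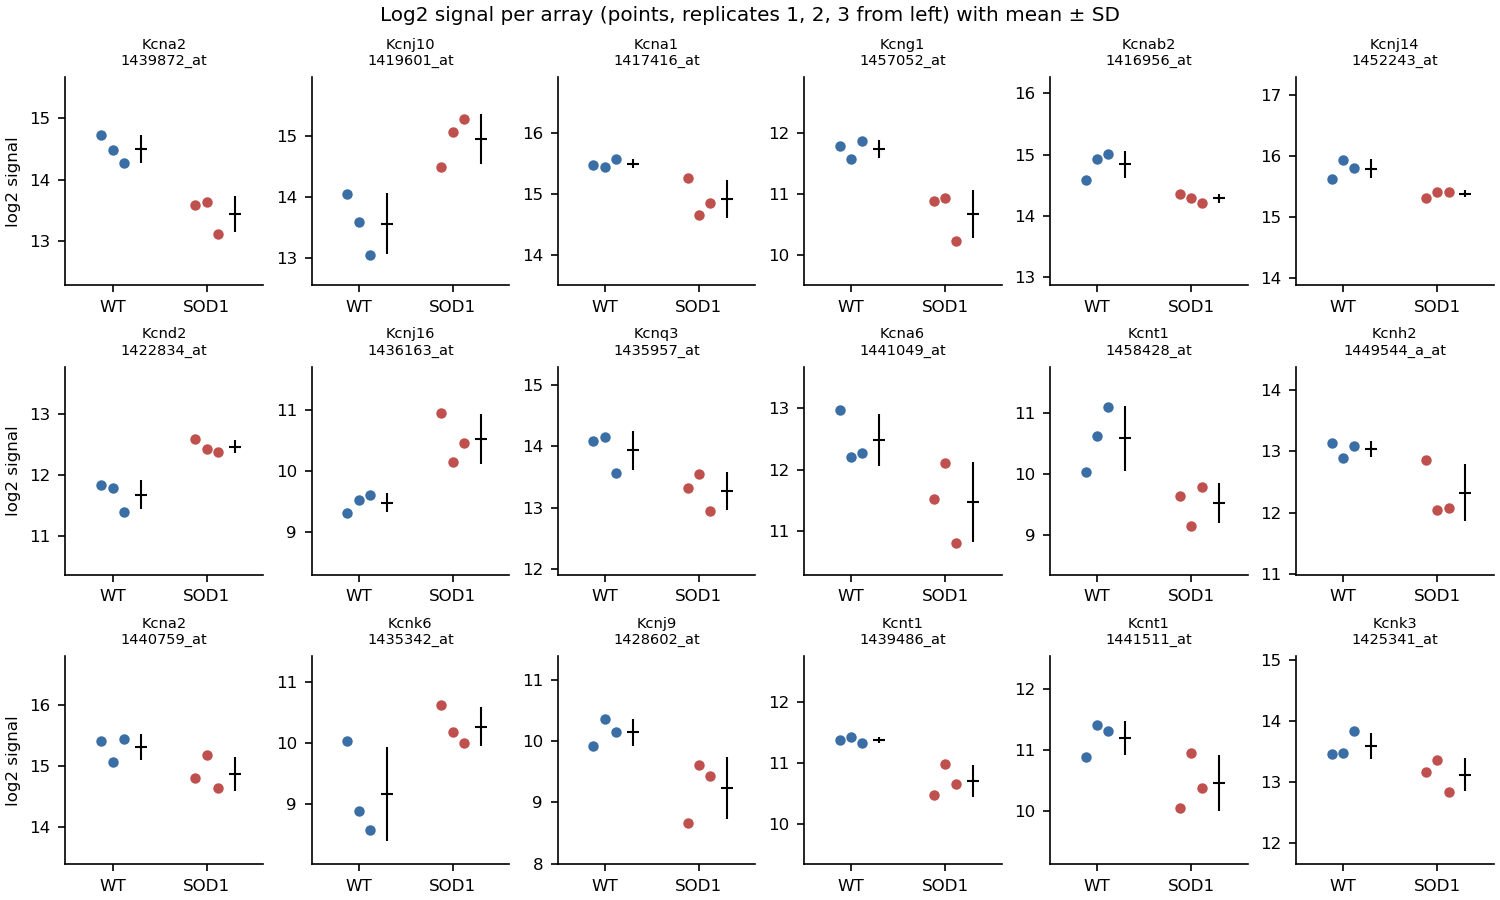
Log2 signal on each array (points, WT blue and SOD1 red, replicates 1 to 3 from left) with mean ± SD beside them, for the 18 potassium channel probe sets at an unadjusted p under 0.05, in order of p. Each panel spans the same 3.4 log2 units; the SOD1 points of the first panel (Kcna2) lie between 13.10 and 13.64, below all WT points, and those of Kcnj10 between 14.50 and 15.29, above all WT points.

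The Kv3 genes (Kcnc) encode fast delayed rectifiers that keep action potentials short. Of their 7 tested probe sets, 4 were negative and 3 positive, and 0 had an unadjusted p under 0.05 by limma. Kcnc1 was at 12.96 ± 0.47 in WT and 12.51 ± 0.17 in SOD1 (SD, n = 3) at its brightest probe set (-0.45 ± 0.26), and its other 3 gave -0.69 ± 0.36, 0.98 ± 0.57 and -0.10 ± 0.76. Kcnc4 was at -0.36 ± 0.25 at one probe set and 0.74 ± 0.73 at the other, and Kcnc2 at 0.60 ± 0.30, all with overlapping arrays.

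The Kv4 genes (Kcnd) carry the transient A-type current of dendrites and cell bodies. Kcnd2 read 11.84, 11.79 and 11.41 in WT and 12.59, 12.44 and 12.37 in SOD1 at one probe set, all SOD1 arrays being higher (0.78 ± 0.24, adjusted p = 0.174). Another Kcnd2 probe set was on the same side (0.51 ± 0.28). The last, the brightest of the gene in WT (12.41 ± 0.33), gave -0.08 ± 0.28 with overlap. Kcnd3 was at 13.43 ± 0.50 in WT and 13.50 ± 0.19 in SOD1 (0.07 ± 0.25) at one probe set and differed by -0.94 ± 0.52 at the other, both with overlap. The KChIP genes encode calcium-binding auxiliary subunits of Kv4 channels. Among them Kcnip4 read 11.42, 10.92 and 13.33 in WT and 13.74, 12.62 and 12.79 in SOD1 (1.16 ± 0.53, adjusted p = 0.343), WT replicate 3 standing within the SOD1 range. A second Kcnip4 probe set was at 1.07 ± 0.58 and the last at -0.31 ± 0.65. Kcnip3 was at 1.77 ± 0.92, but 2 of its WT arrays were at background. Kcnip1 was at -0.20 ± 0.27, -0.16 ± 0.37 and -1.12 ± 0.84 at its 3 tested probe sets, the last above background on only 2 WT arrays and 1 SOD1 array.

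The silent Kv subunits (Kcnf, Kcng, Kcns, Kcnv) form no channel alone and modify other Kv channels. Kcng1 read 11.77, 11.57 and 11.86 in WT and 10.88, 10.93 and 10.22 in SOD1, all SOD1 arrays being lower, 2.08-fold in the mean (-1.06 ± 0.29, adjusted p = 0.151). Kcng4, known as a marker of fast motor neurons, was at 13.75 ± 0.44 in WT and 13.41 ± 0.32 in SOD1 (SD, n = 3), a difference of -0.33 ± 0.25 within overlapping arrays. Kcns2 was on the positive side at both probe sets (1.11 ± 0.53 and 0.45 ± 0.32), again with overlap. The Kcnf1 and Kcnv probe sets fell below the filter. One Kcnv1 probe set was above background on 2 WT arrays and 0 SOD1 arrays and another on 1 WT array and 3 SOD1 arrays, and Kcnf1 was at background on all 6.

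The EAG genes (Kcnh) encode voltage-gated channels that include the ERG channel gene Kcnh2. Kcnh2 read 13.13, 12.89 and 13.10 in WT and 12.87, 12.04 and 12.07 in SOD1 (-0.72 ± 0.26, adjusted p = 0.240). The groups did not overlap, but SOD1 replicate 1 lay close under the lowest WT array. Kcnh1 was at -0.63 ± 0.31 without overlap at one probe set and at -0.21 ± 0.25 at the other, and Kcnh3 at -0.42 ± 0.40 and 0.05 ± 0.74. The Kv7 genes (Kcnq) carry the slow M current that brakes repetitive firing. Kcnq3 read 14.09, 14.16 and 13.56 in WT and 13.32, 13.55 and 12.94 in SOD1, the lowest WT array and the highest SOD1 array nearly meeting (-0.67 ± 0.22, adjusted p = 0.218). Its second probe set was at -0.44 ± 0.39. Kcnq5 was at 0.06 ± 0.67 and -0.14 ± 0.68, with 1 SOD1 array at background at each, and the second was above background on only 2 WT arrays.

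The Slo class holds the sodium-activated channels Kcnt1 and Kcnt2, the calcium- and voltage-activated BK channel Kcnma1 and its relative Kcnu1, known from sperm. Kcnt1 was the one gene with 3 tested probe sets all at an unadjusted p under 0.05, and all were negative, at -0.67 ± 0.28, -0.74 ± 0.33 and -1.06 ± 0.37 (adjusted p = 0.295, 0.330 and 0.233). At the brightest of them Kcnt1 read 11.39, 11.43 and 11.33 in WT and 10.48, 10.99 and 10.67 in SOD1, without overlap. The probe set with the largest difference read 10.03, 10.62 and 11.09 in WT and 9.63, 9.15 and 9.78 in SOD1, also without overlap. Probe sets of 1 gene share its RNA and are not independent measurements. Kcnma1 was at 11.24 ± 0.28 in WT and 10.73 ± 0.28 in SOD1 at its brightest probe set (-0.51 ± 0.30), and 1 of its 4 tested probe sets was positive (0.56 ± 0.50). Kcnmb4, the neuronal beta subunit of BK channels, was at 14.83 ± 0.16 in WT and 14.82 ± 0.14 in SOD1 (-0.01 ± 0.14; 0.0665 on the deposited scaling and 0.17 with median centring). Kcnu1 was at -0.04 and the antisense gene Kcnmb4os2 at 0.07 ± 0.30, both with overlapping arrays. The Slo class had a median of -0.51, with 7 of 8 tested probe sets negative, a count that neither the deposited scaling nor median centring altered.

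The SK genes (Kcnn) encode small-conductance calcium-activated channels that produce the long afterhyperpolarisation of motor neurons. Kcnn1 differed in sign between its tested probe sets (0.70 ± 0.40 and -0.27 ± 0.31), Kcnn2 was at 11.18 ± 0.41 in WT and 10.53 ± 0.52 in SOD1 (-0.64 ± 0.35), and Kcnn3 was at background on all 6 arrays. None had an unadjusted p under 0.05 by limma.

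Among the inward rectifiers (Kcnj), Kcnj10 had the lowest p. It read 14.05, 13.60 and 13.06 on WT replicates 1 to 3 and 14.50, 15.07 and 15.29 on SOD1 replicates 1 to 3, and every SOD1 array was above every WT array. The SOD1 level was 2.61-fold higher (1.38 ± 0.26), with adjusted p = 0.0683, which ranged from 0.0349 to 0.345 over the alternatives and was 0.0349 with a filter at the 60th percentile. Kcnj16, which joins Kcnj10 in astrocyte channels, read 9.30, 9.53 and 9.60 in WT and 10.95, 10.15 and 10.45 in SOD1 at one probe set, without overlap (1.04 ± 0.34, adjusted p = 0.207), and was at 0.47 ± 0.42 at the other. Kcnj14, an inward rectifier described in cranial motor nuclei, went the other way. It read 15.63, 15.93 and 15.80 in WT and 15.31, 15.41 and 15.41 in SOD1, without overlap and with a small difference (-0.41 ± 0.12, adjusted p = 0.160; -0.18 with median centring).

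The G protein-gated rectifiers gave no single direction. Kcnj3 was at 11.55 ± 0.15 in WT and 11.46 ± 0.09 in SOD1 (-0.10 ± 0.25) at one probe set and gave 0.20 ± 0.42 and 0.28 ± 0.54 at 2 others. Kcnj9 differed between its probe sets, with -0.91 ± 0.38 without overlap at one, 1.54 ± 0.76 at another and -0.08 ± 0.56 at the last. The positive one read 8.64, 9.69 and 12.45 in WT, and its WT replicate 3 stood above all SOD1 values, which ran from 11.05 to 12.35. The Kcnj6 probe sets lay below the filter. Kcnj8, the pore of the vascular ATP-sensitive channel, read 8.65, 8.42 and 8.68 in WT and 10.39, 7.76 and 6.35 in SOD1, so its SOD1 arrays spread to both sides of WT (-0.41 ± 0.84). Kcnj13, an inward rectifier of epithelia such as the choroid plexus, spread most in WT, at 10.72, 9.52 and 6.70, against 7.24, 8.21 and 7.65 in SOD1. Over the inward rectifiers 7 of 14 tested probe sets were positive and 7 negative.

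The 2-pore genes (Kcnk) encode leak channels that hold the resting potential. Kcnk3, an acid-sensitive leak channel prominent in motor neurons, read 13.46, 13.48 and 13.84 in WT and 13.17, 13.36 and 12.84 in SOD1, all SOD1 arrays being lower (-0.47 ± 0.21, adjusted p = 0.331), and its other tested probe set gave -0.29 ± 0.74 with overlap. A Kcnk3 probe set below the filter gave 2.02 ± 0.62 with all SOD1 arrays higher, but it was above background on 0 arrays. Kcnk1 was at 14.22 ± 0.14 in WT and 14.05 ± 0.17 in SOD1 (-0.17 ± 0.16) at one probe set, and its other tested probe set differed in sign, at 0.64 ± 0.39 with all SOD1 arrays above WT. Kcnk2, a mechanosensitive leak channel, was at 12.04 ± 0.45 and 12.04 ± 0.32 (0.01 ± 0.29). Kcnk6 read 10.03, 8.89 and 8.56 in WT and 10.62, 10.17 and 9.99 in SOD1 (1.10 ± 0.43, adjusted p = 0.276), WT replicate 1 falling just inside the SOD1 range. The acid-sensitive relative Kcnk9 was not analysed here.

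**Figure D3:**
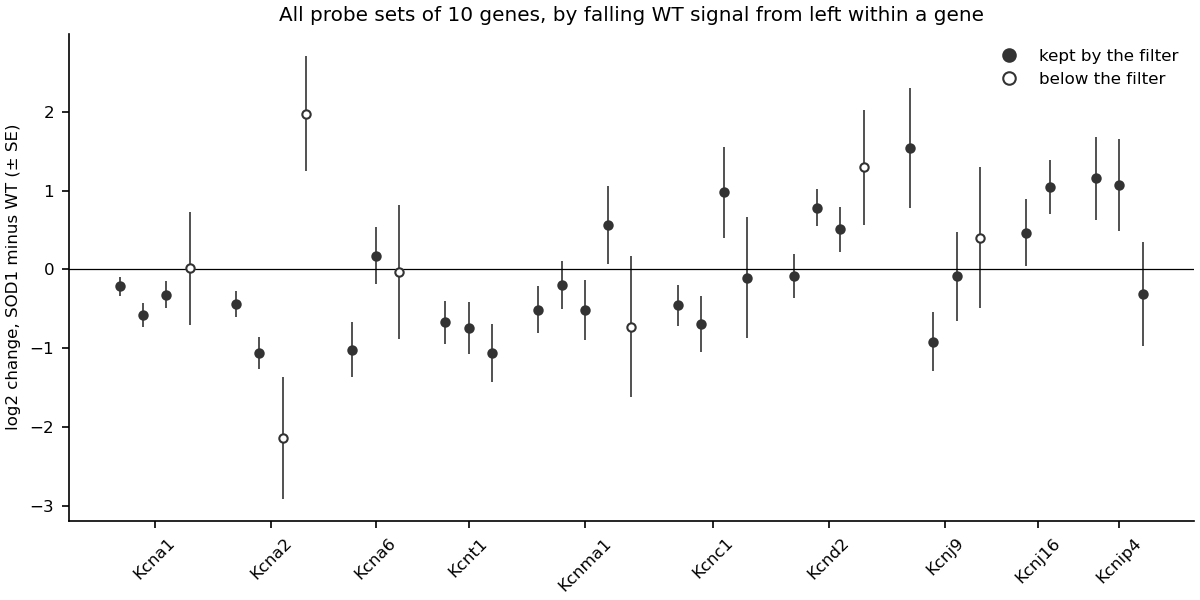
Log2 change, SOD1 minus WT (± SE from limma, 3 arrays per group), of every probe set of 10 potassium channel genes, with filled points for probe sets kept by the filter and open points for those below it. The 3 tested probe sets of Kcnt1 and of Kcna1 lie below 0, while those of Kcna6, Kcnma1, Kcnc1, Kcnd2, Kcnj9 and Kcnip4 lie on both sides.

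Probe sets of 1 gene often differed in sign. Of the 25 genes with 2 or more tested probe sets, 11 had all tested estimates of 1 sign and 14 had mixed signs. The 11 were Kcna1, Kcna2, Kcnab1, Kcnh1, Kcnip1, Kcnj16, Kcnk3, Kcnq3, Kcns2, Kcns3 and Kcnt1. The replicate SD was smaller at high signal. Over the 23 tested probe sets with a mean of 12 or more its median was 0.23 in WT and 0.26 in SOD1, and over the 65 below 12 it was 0.42 and 0.41. Of the 23, 16 were negative and 7 positive, with a median change of -0.32, against 0.02 over the 7357 probe sets of the whole array at that level. Of the 73 members below the filter, 7 (9.59%) had all SOD1 arrays below WT, against 5% of all 18015 probe sets below the filter, and 4 (5.48%) had them above, against 5.71%. Of the 73, 67 were at background on at least 1 array of each group. Several members picked by the naming rule were among them. Kcne4 was at -1.53 ± 0.72 and a Kcnj6 probe set at -1.67 ± 0.80, both with all SOD1 arrays lower. Kcne4 was above background on 3 WT and 0 SOD1 arrays, and Kcnj6 on 3 WT and 1 SOD1. Kcns1 was at 1.16 ± 0.72 with all SOD1 arrays higher, above background on 0 WT and 1 SOD1 array. Kcnh7 was at 1.16 ± 1.01 and Kcnj4 at 0.66 ± 0.79, both with overlap.

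By a list of 36 genes with a textbook role in motor neuron excitability, 31 had probe sets and 54 of their probe sets were tested, with a median of -0.24, 37 negative and 17 positive, 12 lower (22.2%, against 7.58% of all probe sets tested) and 1 higher (1.85%, against 7.09%) at an unadjusted p under 0.05 by limma, and 0 past the adjusted threshold. By a list of 11 channels known mainly from glia and vessels, 6 probe sets of 5 genes were tested, with a median of 0.75, 4 positive and 2 negative, and 3 of the 6 higher at an unadjusted p under 0.05 (those of Kcnj10, Kcnj16 and Kcnk6), against 7.09% of all probe sets tested. The lowest of the 6 estimates was that of Kcnj8 (-0.41 ± 0.84). Both lists were drawn up with earlier results of these data known.

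Markers of other cells differed between the groups. Astrocyte markers had a median change of 0.37, with 10 of 12 genes positive, and their summed signal ranged from 243574 to 269853 in WT and from 299472 to 305586 in SOD1. For 14 microglial markers, of which 14 were positive, the summed signal ranged from 10378 to 44767 in WT and from 115672 to 217832 in SOD1. Oligodendrocyte markers, 10 of 11 positive, went from 195184 to 228819 in WT to 260793 to 282316 in SOD1. Endothelial and mural markers, 12 of 14 negative, ranged from 31072 to 73626 in WT and from 7590 to 23371 in SOD1, and motor neuron markers, 8 of 12 negative, from 576951 to 634030 in WT and from 511590 to 571403 in SOD1. The median change was 2.62 for the microglial, 0.54 for the oligodendrocyte, -1.42 for the endothelial and mural and -0.18 for the motor neuron markers. By limma, 6 microglial, 2 astrocyte and 1 endothelial or mural marker passed the adjusted threshold, and 0 oligodendrocyte and 0 motor neuron markers did. In none of the 5 lists was a measured marker at background on all 6 arrays. The part of these differences in the values of Kcnj10, Kcnj16, Kcnk6, Kcnj8, Kcna2, Kcna1 and the other channel genes was not tested.

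**Figure D4:**
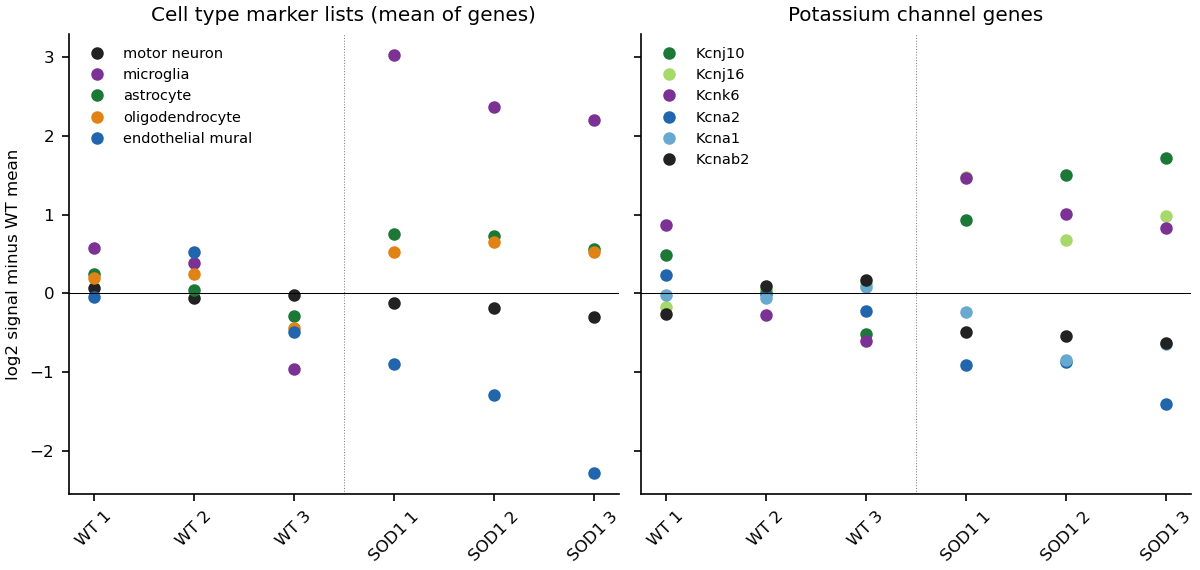
Log2 signal on each array minus the WT mean, for the mean of 5 cell type marker lists (left) and for 6 potassium channel probe sets (right), with a dotted line between WT and SOD1 arrays. The microglial, astrocyte and oligodendrocyte lists and Kcnj10 and Kcnj16 lie above every WT point on the SOD1 arrays, and Kcna2, Kcna1, Kcnab2, the motor neuron list and the endothelial and mural list below every WT point.

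Proteins that assemble, anchor or cluster potassium channels were described from a list drawn up in the same way. Of 30 such genes, 26 had probe sets, and of their 64 tested probe sets 0 passed the threshold by limma, 10 were lower and 0 higher at an unadjusted p under 0.05 (15.6% lower, against 7.58% of all probe sets tested), with a median of -0.13, 42 negative and 22 positive. The lowest p was that of Ank3, the ankyrin that anchors Kv7 and sodium channels at the initial segment (15.53 ± 0.12 in WT and 14.98 ± 0.11 in SOD1, -0.55 ± 0.12, adjusted p = 0.110). The other 5 tested probe sets of Ank3 gave -0.35, -0.95, 0.43, 0.02 and -0.00098. Vapb, a tether protein of the endoplasmic reticulum, gave negative estimates without overlap at 2 probe sets (-0.82 ± 0.20 and -0.75 ± 0.22, adjusted p = 0.131 and 0.161) and 0.01 ± 0.24 at the other. Cntn2, the adhesion protein that gathers Kv1 channels beside the nodes, gave -1.02 ± 0.33, -0.77 ± 0.27 and -1.26 ± 0.46 (adjusted p = 0.198, 0.232 and 0.244), without overlap at any of the 3. For its partner Cntnap2 and for the Kv4 partner Dpp6 the arrays overlapped, at -0.68 ± 0.28 and -0.70 ± 0.26, and their other tested probe sets gave -0.05 ± 0.18 and -0.29 ± 0.36. Dpp10, of the same list, gave 0.63 ± 0.32 with all SOD1 arrays higher at one probe set and -0.18 ± 0.22 at the other. Over the partners, all SOD1 arrays lay below all WT arrays at 10 tested probe sets (15.6%, against 9.81% of all tested). They lay above at 3 (4.69%, against 10.5%).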

How the data were processed

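Mouse Affymetrix arrays measured brainstem motor neuron RNA, 3 WT and 3 SOD1, after 2 rounds of T7-based amplification per the labels. Each deposited value is a probe set's intensity on a linear scale, and all 6 deposited arrays have the same trimmed mean of 2500.02, as the values show; the algorithm is not given in the sources used here. Amplification from the 3′ end can lower probe sets far from it. Of 45101 probe sets, 64 controls were left out. Symbols came from the platform annotation, and all 161 members matched RefSeq (GRCm38.p6). Values were quantile normalised, 16 was added, log2 was taken, and probe sets above the 40th percentile were fitted with limma 3.58.1 in R 4.3.3 (lmFit, eBayes with a variance trend, two-sided, Benjamini-Hochberg, threshold 0.05). Correlations between arrays were 0.907 to 0.937 within and 0.902 to 0.925 between groups. On each array, the 95th percentile of the 27 bacterial controls served as background. The fit was tested on simulated data. The members and lists were chosen with earlier results of these data known, and the background level after seeing the data.

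Named were members past the threshold, the 10 with the smallest p in each direction, the 15 with the highest WT signal, the highest of each subfamily, a list of motor neuron channels, and of the partners the 6 with the smallest p. Members and partners named beyond this (Kcnj8, Kcnj13 and others, Cntnap2, Dpp6 and Dpp10) were added after their values were seen. Alternatives tried were the deposited scaling, centring on the median, adding 1 or 64, leaving the filter out or moving it to the 60th percentile, no or a robust variance trend, weighting arrays, blocking on the replicate number, a term for Xist, each array left out, 1 probe set per gene, no _x_at or _s_at probe sets, and a threshold of 0.1. Figures were drawn with matplotlib 3.10.9.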

Additional observations from a re-analysis of the deposited data

How the results depend on the processing

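The count of 0 potassium channel probe sets past the threshold was 2 with a filter at the 60th percentile (Kcna2 and Kcnj10) and 2 with a threshold of 0.1. It was 1 each with array weights (Kcna2), a term for Xist (Kcna2) and 1 probe set per gene (Kcnj10). The filter at the 60th percentile both adjusts over fewer probe sets and refits the variance trend. Apart from the threshold of 0.1, why the count differed was not tested. The count was 0 in the other settings, including all that left out an array. Over all probe sets the calls, 50 in the main setting, went to 0 with no variance trend and without WT replicate 2 and to 106 with the filter at the 60th percentile, and were 9 without WT replicate 1, 6 without SOD1 replicate 2, 29 without SOD1 replicate 3, 79 without WT replicate 3, 87 with a pseudocount of 64, 100 with array weights and 191 with a threshold of 0.1. The median change of the members, -0.17, was -0.23 with values as deposited (-0.06 over all probe sets) and -0.0827 with no filter, beyond a replicate SD of 0.0653, and lay from -0.22 to -0.11 with 1 array left out. The partner count was 0 throughout. The labels do not say that equal replicate numbers pair the samples. Deviations of same-numbered arrays from their group means correlated at 0.03, -0.04 and -0.01 over all probe sets tested, which cannot exclude pairing that touches a part of them. The replicate block gave 0 members and 76 probe sets called in all.

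Of 43 named probe sets tested, 33 kept their sign in every setting and 10 did not. In all, 32 of 766 comparisons turned, all of estimates short of the threshold, as every member was in the main setting. Many of the 766 could not turn, because a changed filter, a changed variance trend or the replicate block leaves the estimate as it is. With values as deposited the change was -0.0099 for Kcnmb4os2, 0.0665 for Kcnmb4, -0.0452 for Kcnk2 and -0.0637 for Kcnq5. With median centring it was 0.17 for Kcnmb4 and 0.014 for the last-named Kcna1 probe set. With array weights it was 0.0066 for Kcnmb4 and 0.015 for the last-named Kcnd2 probe set, and with a term for Xist 0.10 for Kcnip1 and -1.18 for Kcnq5. With 1 array left out the range was -0.17 to 0.26 for Kcnmb4os2, -0.0321 to 0.15 for Kcnab1, -0.11 to 0.0546 for Kcnmb4, -0.26 to 0.19 for Kcnk2, -0.25 to 0.17 for that Kcnd2 probe set, -0.18 to 0.32 for Kcnd3, -0.56 to 0.76 for Kcnq5 and -0.34 to 0.17 for Kcnu1. Signal near background limits the 73 members below the filter, and the number of arrays limits the rest.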
